A study of Mus musculus with 5 samples.

Results

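The type I interferon response genes are 35 genes of innate antiviral defence, taken as a list of symbols and matched to the gene tables of a single-cell RNA sequencing study of the injured mouse kidney. All 35 were found among the 32285 genes of the files, each with 1 gene ID. Their values were followed in 23797 cells of 5 mice that had undergone ischemia-reperfusion injury, in which blood flow to the kidney is stopped and then restored. Mice 3, 4 and 5 were sampled on day 10 after injury, and mice 1 and 2 at 48 h. Each mouse gave 1 library made with 10x Genomics 3′ chemistry. The labels name no genotype, strain, age or treatment other than the injury, which all 5 mice share, and no uninjured kidney was compared, so each change is between a late and an early time after injury. The question addressed is which cells of the injured kidney carried these transcripts and how their levels differed between the times.

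Type I interferons, the alpha and beta interferons, bind a receptor made of Ifnar1 and Ifnar2. The receptor's kinases activate Stat2, which with Irf9 is part of a transcription factor complex that binds the interferon-stimulated response element, a motif in the promoters of target genes. Type II interferon (Ifng) and type III interferons induce an overlapping set of genes, and some members have a resting level in cells without any interferon. The members fall into several roles. Ddx58 (RIG-I), Ifih1 (MDA5), Dhx58 (LGP2) and Zbp1 sense foreign or misplaced nucleic acids. Irf7, Irf9 and Stat2 carry the signal to the genome. Among the effectors, the IFIT proteins bind viral RNA, the OAS enzymes and the kinase Eif2ak2 (PKR) respond to double-stranded RNA, Isg15 is a ubiquitin-like modifier, and Ifitm3 and Bst2 (tetherin) block virus entry and release at membranes. Usp18 removes Isg15 from proteins and restrains the receptor.

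Counts below are unique molecular identifiers (UMIs), 1 per captured transcript, and CPM is UMIs per 1000000 of all UMIs summed over the cells of a type in a mouse. The 5 libraries held between 3720 and 5912 kept cells and between 45887945 and 78351722 UMIs, and pairs of libraries shared between 3 and 10 cell barcodes. Cell types are the authors' 18 labels. The immune label was divided by the authors' clusters into cluster 0, here macrophage-like, cluster 5, neutrophil-like, cluster 10, T- and NK-like, and cluster 12, B cell-like, by markers that were all detected in their own cluster. In cluster 0 the summed macrophage markers stood at 52795 to 58197 CPM on day 10 and 8577 to 12553 CPM at 48 h, and the monocyte markers at 669 to 1330 CPM on day 10 and 3664 to 5495 CPM at 48 h. In cluster 5 the summed neutrophil markers stood at 58625 to 65841 CPM on day 10 and 166434 to 218864 CPM at 48 h. Neutrophil markers were also detected outside that cluster, at 67.9 to 96.0 CPM on day 10 and 210 to 658 CPM at 48 h over all non-immune cells. The cells of a label therefore did not hold the same makeup at both times, and the part this plays in the results was not tested, except where values without such cells are given.

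The promoters of the members were searched for the core of the element that the complex of Stat2 and Irf9 binds. RefSeq promoter sequences (build GRCm38.p6, 250 bases before to 50 after the start) were matched for 28 of the 35 members. Dhx58, Ifi27l2a, Oas2, Parp14, Rtp4, Usp18 and Zbp1 were not matched. The core GAAANNGAAA, or TTTCNNTTTC on the other strand, was present in 14 of the 28 (50%), against 1079 of 27025 genes (3.99%). In the 250 bases before the start alone it was present in 10 of the 28 members (35.7%), against 936 of 27025 genes (3.46%). A match is a description of the letters and was not tested for binding. Short stretches are shown for members on which the results below turn, written 5′ to 3′ along the gene's strand, with the motif in capitals.
Isg15, chr4:156200859-156200918, minus strand: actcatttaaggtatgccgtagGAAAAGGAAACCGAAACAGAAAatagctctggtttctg
Ifit1, chr19:34640764-34640823, plus strand: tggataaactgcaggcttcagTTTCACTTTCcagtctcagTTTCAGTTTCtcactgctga
Ifit3, chr19:34583353-34583426, plus strand: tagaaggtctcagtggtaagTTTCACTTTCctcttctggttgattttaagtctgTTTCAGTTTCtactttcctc
Ifit3b, chr19:34607749-34607822, plus strand: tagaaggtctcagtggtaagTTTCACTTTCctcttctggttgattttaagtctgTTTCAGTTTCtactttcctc
Rsad2, chr12:26456543-26456592, minus strand: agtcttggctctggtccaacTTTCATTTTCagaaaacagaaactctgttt
Bst2, chr8:71537573-71537622, minus strand: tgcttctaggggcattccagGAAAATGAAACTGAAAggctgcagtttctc
Oas3, chr5:120777705-120777754, minus strand: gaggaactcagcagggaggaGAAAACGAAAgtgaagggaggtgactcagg
In Isg15 the 3 matches overlap within 22 bases. The stretches of Ifit3 and Ifit3b are the same at 74 of 74 bases and hold 2 matches each. The transcripts of these neighbours are also 98.0% identical over 1697 aligned bases, so the counting could split or drop their reads, and their separate values are uncertain. Every stretch shown is from a member with a match. Ifit2, Irf7, Irf9, Slfn4, Ifi35, Ifi44, Ifi47, Cmpk2, Xaf1, Samd9l, Oasl1, Oasl2, Herc6 and Lgals3bp, which also appear below, held no match in this window.

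Endothelial cells held the highest summed level of the 35 genes in every mouse. The sum was 6103, 3976 and 5296 CPM in mice 3, 4 and 5 on day 10, and 9945 and 8065 CPM in mice 1 and 2 at 48 h. Endothelial cells were first of 17 labels and immune clusters in each of the 5 mice, and also when Ifitm3, Bst2 and Lgals3bp, which many resting cells hold, were left out. By the mean over mice, immune clusters 0 and 5 and interstitial cells followed. The order of these 3 was not the same in every mouse, and their ranges overlapped, with cluster 5 only the sixth in mouse 4. Without Ifitm3, Bst2 and Lgals3bp the order below endothelial cells was another one. Cluster 5 then averaged 2227 CPM over the 5 mice, cluster 0 1778 CPM, the descending thin limb 1437 CPM, cluster 10 1321 CPM and interstitial cells 953 CPM. Proximal tubule labels were at the low end, and the merged proximal tubule averaged 353 ± 43.3 CPM on day 10 (SD, n = 3) and 314 ± 19.8 CPM at 48 h (SD, n = 2). These are descriptions without a test, since the labels were made from the same transcriptomes.

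**Figure D1:**
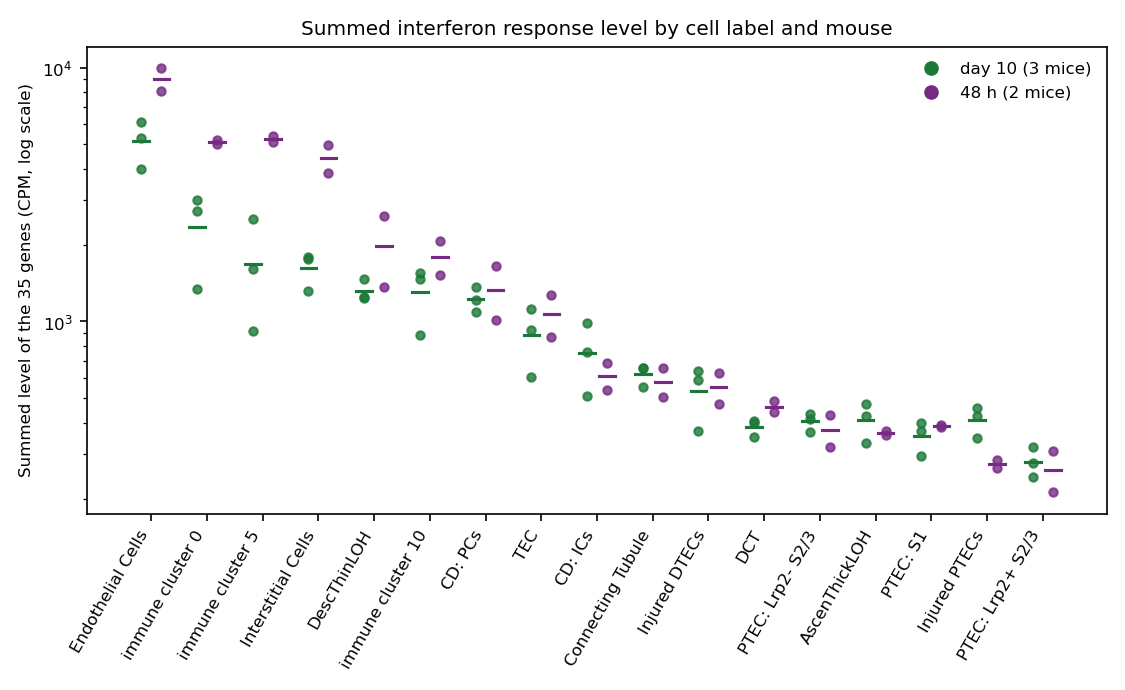
Summed level of the 35 genes (CPM, log scale) in each cell label or immune cluster, with 1 point per mouse and the mean as a line, day 10 left of 48 h. Endothelial cells lie highest, at 3976 to 6103 CPM on day 10 and 8065 to 9945 CPM at 48 h. In immune clusters 0 and 5 and in interstitial cells all day 10 points lie below both 48 h points.

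The sum rested on different genes in different cells. In endothelial cells Ifitm3 made up 40.4% of it, Rsad2 10.8%, Bst2 10.8% and Ifi44 5.77%. In cluster 0 Ifitm3 made up 36.1% and Ifi27l2a, which encodes a small hydrophobic protein, 21.5%. In proximal tubule S1 cells 36.2% was Samd9l, a regulator of endosomes and translation, which was at a like level at both times, with 145, 113.3 and 140 CPM on day 10 and 116 and 153 CPM at 48 h. Ifit3 and Ifit3b together made up between 44.2% and 67.7% of the sum in the descending thin limb. Endothelial cells also led by single cells. After each cell was thinned to 1000 UMIs, the share of endothelial cells with at least 5 UMIs of the 32 members other than Ifitm3, Bst2 and Lgals3bp was 25.7%, 11.6% and 16.7% on day 10 and 45.8% and 36.3% at 48 h. It averaged 4.89% on day 10 and 25.8% at 48 h in cluster 5, and 5.69% on day 10 and 16.2% at 48 h in cluster 0. In proximal tubule, the type with a low summed level set beside them, it averaged 0.22% on day 10 and 0.10% at 48 h. Unthinned, the mean share was 73.2% on day 10 and 87.8% at 48 h in endothelial cells, and 42.4% on day 10 and 25.4% at 48 h in proximal tubule. Median depth was 4255 to 4920 UMIs on day 10 and 4158 to 4373 UMIs at 48 h in endothelial cells, and 12626 to 16590 UMIs on day 10 and 5996 to 6197 UMIs at 48 h in proximal tubule.

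By gene, 18 of the 35 members had their highest mean level in endothelial cells. Cluster 5 led for 6, cluster 0 for 4, the descending thin limb for 3, and cluster 10 and the connecting tubule for 2 each. Rsad2 (viperin, which makes a chain-terminating nucleotide) was among the members with a level in endothelial cells far above that of any other type. It was 767, 541 and 572 CPM on day 10 and 935 and 800 CPM at 48 h, while the next type, cluster 5, averaged 56.6 CPM over the 5 mice. Ifi44, a cytoplasmic protein induced by interferon, stood at 316, 124 and 218 CPM in endothelial cells on day 10 and 711 and 557 CPM at 48 h, and at a mean of 25.8 CPM in the next type, the principal cells. Both were highest in endothelial cells in 5 of 5 mice. Cluster 5 was the place of Slfn4, a myeloid schlafen, with 204, 91.5 and 174 CPM on day 10 and 639 and 758 CPM at 48 h, against a mean of 12.8 CPM in cluster 0. It also led for Oas2, Oas3, Oasl1, Oasl2 and the antiviral regulator Trim30a. Cluster 0 led for Ifi27l2a, Dhx58, Oas1a and Lgals3bp, the last within 1 CPM of endothelial cells. Cluster 10 led for Zbp1 and for Ifi47, an immunity-related GTPase that type II interferon also induces.

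**Figure D2:**
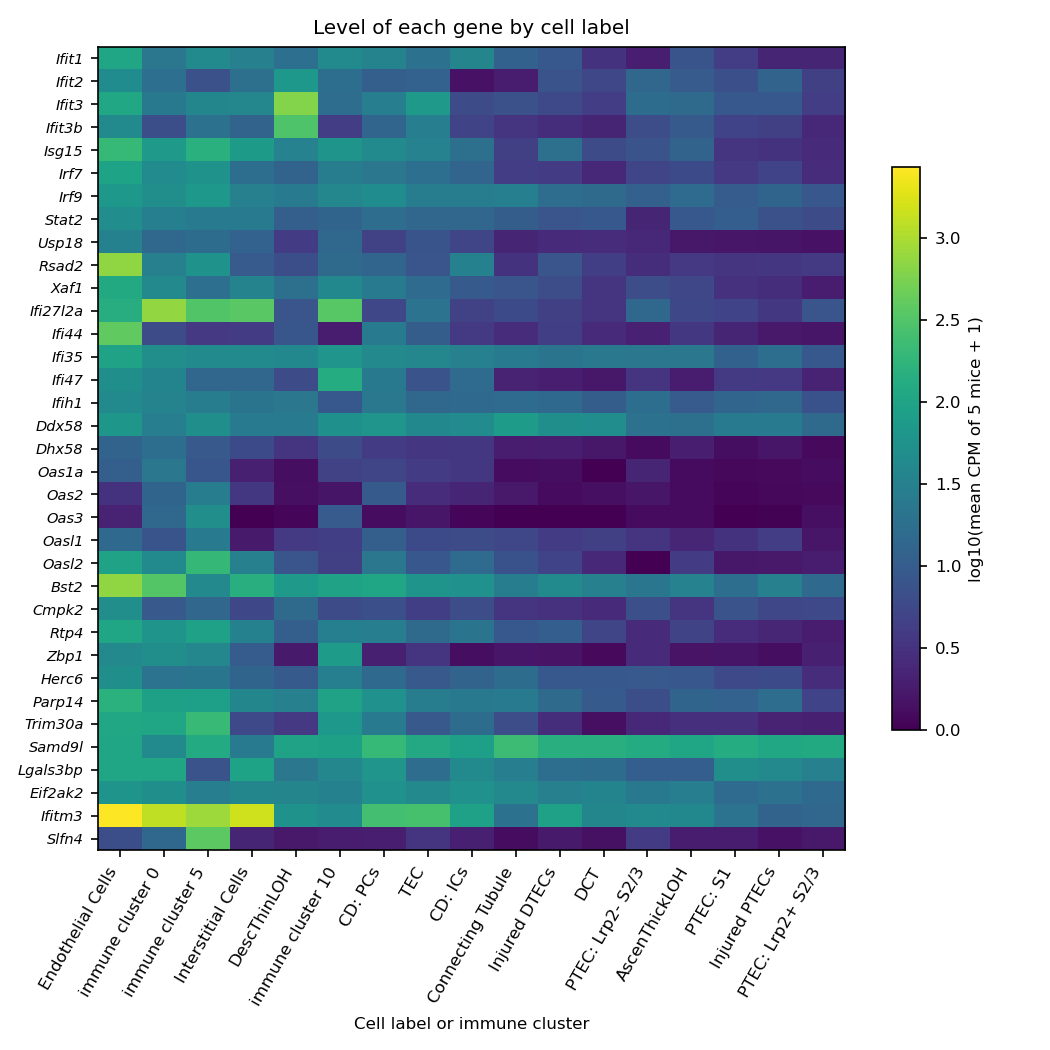
Level of each of the 35 genes, as log10 of the mean CPM of 5 mice plus 1, in each cell label or immune cluster, ordered by the summed level. Rsad2 and Ifi44 are bright in endothelial cells, Slfn4 in immune cluster 5, and Ifit3 and Ifit3b in the descending thin limb.

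The descending thin limb, a water-permeable segment of the loop of Henle, held a high level of Ifit3 and Ifit3b without a like level of the other members. Ifit2 was also highest there, while Ifit1 averaged 16.7 CPM, against 105 CPM in endothelial cells. Ifit3, which strengthens RNA binding by Ifit1 in human cells, stood there at 604, 550 and 404 CPM on day 10 and 1180 and 405 CPM at 48 h. The mean of 629 CPM over the 5 mice compares with 108 CPM in endothelial cells, the next type, and Ifit3 was highest in this segment in 5 of 5 mice. Ifit3b, which shares its promoter letters and much of its transcript, followed with 267, 276 and 199 CPM on day 10 and 582 and 202 CPM at 48 h. Isg15 in the same cells stood at 21.1, 4.70 and 33.6 CPM on day 10 and 63.9 and 37.0 CPM at 48 h, below its endothelial level in each mouse. The other 33 members together came to 423 to 635 CPM on day 10 and 766 to 840 CPM at 48 h in the thin limb, and to 3915 to 6002 CPM on day 10 and 7836.5 to 9665 CPM at 48 h in endothelial cells. An Ifit3 UMI was found in 76.4% to 83.8% of thin limb cells on day 10 and in 67.7% and 92.2% at 48 h. After thinning to 1000 UMIs the shares were 28.9% to 38.5% on day 10 and 19.8% and 64.4% at 48 h in the thin limb, against 0% to 1.16% on day 10 and 0% and 0.442% at 48 h in proximal tubule S1 cells. Median depth was 18756 to 24347 UMIs on day 10 and 11228 and 15946 UMIs at 48 h in the thin limb, and 10072 to 12912 UMIs on day 10 and 5683 and 7949 UMIs at 48 h in S1 cells.

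Day 10 was then compared with 48 h in each type that held at least 20 cells in every mouse, which cluster 12 did not. A member was called changed where edgeR's quasi-likelihood test, adjusted by Benjamini-Hochberg over all genes of the type, gave a p under 0.05. Fold changes are day 10 over 48 h, so negative log2 values mean lower on day 10, and SE is their standard error. In this fit no member was called higher on day 10 in any of the 11 types. Members were called lower in 5 types, and 27 of the 35 were called in at least 1. Ifitm3 and Irf7 were called in 3 types, 11 members in 2 and 14 members in 1. Herc6, Ifi44, Ifih1, Lgals3bp, Oas1a, Parp14, Rsad2 and Stat2 were called in none.

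Neutrophil-like cluster 5 held the most calls. Of its 29 members past the filter on low counts, 18 were lower on day 10 and 0 higher, while 10.7% of the 6496 genes tested there were called lower and 18.5% called in either direction. The member median log2 fold change was -1.60, against 0.04 for all genes. The OAS enzymes and PKR were lower in 5 of 5 tested, the signalling factors in 2 of 3, the nucleic acid sensors in 2 of 3 and the IFIT genes in 0 of 3. Every day 10 mouse lay below both 48 h mice for 18 of the 29 members, against 8.04% of all genes tested. Ifit2, Ifi44, Dhx58, Oas1a, Cmpk2 and Lgals3bp did not pass the filter.

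Isg15 in cluster 5 stood at 141, 15.3 and 34.5 CPM on day 10 and 319 and 237 CPM at 48 h. All day 10 values were below both 48 h values, and mouse 3 was the highest of its group (log2 fold change -2.45, SE 0.49, edgeR adjusted p = 0.00756). Irf7, the factor that amplifies interferon production, had 44.9, 22.9 and 24.7 CPM on day 10 and 92.5 and 102 CPM at 48 h (-2.09, SE 0.27, adjusted p = 0.000815). Slfn4, with the values given above, fell by 2.61 on the log2 scale (SE 0.27, adjusted p = 0.000308). Its groups did not overlap either. Ifi27l2a had 99.4, 3.81 and 184 CPM on day 10 and 710 and 568 CPM at 48 h (-3.09, SE 0.53, adjusted p = 0.00354), where the value of mouse 4 rests on 1 UMI. Xaf1, a promoter of cell death, had 8.02, 3.81 and 4.93 CPM on day 10, from 9 UMIs in all, and 37.0 and 31.8 CPM at 48 h (-2.98, SE 0.38, adjusted p = 0.000785). Both genes kept the groups apart.

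Further members of cluster 5 differed among themselves. Ifitm3 had 545, 221 and 416 CPM on day 10 and 1387 and 1603 CPM at 48 h (log2 fold change -2.40, SE 0.30, edgeR adjusted p = 0.000634). Rtp4, a chaperone of receptors that also binds RNA, had 81.8, 7.63 and 14.8 CPM on day 10 and 193 and 164 CPM at 48 h (-2.65, SE 0.49, adjusted p = 0.00512). Oasl1, which represses Irf7 translation in mice, had 22.5, 3.81 and 3.29 CPM on day 10 and 54.6 and 37.5 CPM at 48 h (-2.49, SE 0.49, adjusted p = 0.00698). The 3 genes were lower in every day 10 mouse. Bst2, at 49.7, 22.9 and 69.0 CPM on day 10 and 31.9 and 30.6 CPM at 48 h, overlapped between the times (0.21, SE 0.31).

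Several members of cluster 5 that did not pass had 1 day 10 mouse at the 48 h level. Ifit1 had 67.4, 3.81 and 4.93 CPM on day 10 and 62.2 and 77.7 CPM at 48 h (log2 fold change -1.75, SE 0.60, edgeR adjusted p = 0.0634). Ifit3 had 89.8, 7.63 and 1.64 CPM on day 10 and 41.2 and 42.5 CPM at 48 h, so mouse 3 lay above both 48 h mice and the other day 10 mice below them (-0.64, SE 0.71). Rsad2 had 85.0, 7.63 and 16.4 CPM on day 10 and 110 and 63.6 CPM at 48 h (-1.51, SE 0.53, adjusted p = 0.0697). Stat2 had 32.1, 11.4 and 18.1 CPM on day 10 and 33.6 and 30.2 CPM at 48 h (SE 0.34, adjusted p = 0.0631). In each of these mouse 3 lay above at least 1 of the 48 h mice. Without mouse 3 the count of members called lower was 28, while 10.2% of all genes were called lower. Without mouse 5 it was 13, while 4.47% of all genes were called lower.

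The scale of cluster 5 bears on these values. Fold changes use TMM factors, which were 1.13 to 1.25 on day 10 and 0.73 to 0.82 at 48 h, so the fitted change is more negative than the ratio of CPM. With library totals alone the median of all genes moved to 0.57 and that of the members to -1.08. In that fit 18 members were again called lower, while 4.02% of all genes were called lower. The share of cells with a UMI of Siglecf, a lectin found on a subset of neutrophils in injured tissue, was 41.5%, 30.0% and 42.7% on day 10 and 18.1% and 22.1% at 48 h. Among the cells without it, the summed member level was 3256, 1042 and 1751 CPM on day 10 and 5417 and 5274 CPM at 48 h, again with no overlap. Only 90 cells of mouse 4 lay in this cluster.

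In macrophage-like cluster 0 the summed level was 3012, 1341 and 2732 CPM on day 10 and 5172 and 5012 CPM at 48 h, but fewer members were called. Of 35 tested, 6 were lower on day 10 and 0 higher, while 12.5% of the 13980 genes tested were called lower and 24.1% called in either direction. The members' share of calls was near that background. The member median was -0.82, against 0.07 for all genes, and 33 of 35 log2 fold changes were negative. For 24 of the 35 every day 10 mouse lay below both 48 h mice, against 29.9% of all genes. Those called were Slfn4, Oas3, the sensors Zbp1 and Dhx58, Ifitm3, and Ifi35, a protein released by stressed macrophages.

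Slfn4 had 1.33, 1.66 and 1.26 CPM in cluster 0 on day 10 and 20.5 and 39.2 CPM at 48 h (log2 fold change -4.34, SE 0.32, edgeR adjusted p = 0.0026). The groups were far apart, and this was the only member called without each mouse in turn. Neutrophil markers moved the same way there, with 58.6 to 103 CPM on day 10 and 1464 to 3282 CPM at 48 h. Without cells that held at least 3 UMIs of S100a8, S100a9 and Retnlg, Slfn4 was again called lower, with Oas3, Ifi35 and Cmpk2. Ifitm3, Zbp1 and Dhx58 were not called in that fit, where 10.5% of all genes were called lower. Oas3, which makes the activator of RNase L, had 6.44, 2.28 and 6.91 CPM on day 10 and 25.5 and 25.8 CPM at 48 h (-2.26, SE 0.42, adjusted p = 0.015). Ifitm3 had 1016, 508 and 886 CPM on day 10 and 1860 and 1962 CPM at 48 h (-1.20, SE 0.27, adjusted p = 0.025). Zbp1, which starts necroptosis, had 35.1, 20.1 and 40.1 CPM on day 10 and 69.5 and 76.1 CPM at 48 h (-1.15, SE 0.27, adjusted p = 0.0296). The 3 genes showed no overlap, with mouse 4 the lowest in each. Ifi35 had 40.3, 21.7 and 35.1 CPM on day 10 and 78.5 and 64.0 CPM at 48 h (-1.09, SE 0.26, adjusted p = 0.0289). Dhx58 had 13.1, 7.77 and 14.4 CPM on day 10 and 25.5 and 22.3 CPM at 48 h (-0.97, SE 0.26, adjusted p = 0.0416), again with mouse 4 lowest.

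The best known members did not pass in cluster 0, although most kept the groups apart. Isg15 had 64.9, 14.9 and 47.3 CPM on day 10 and 112.6 and 98.6 CPM at 48 h (log2 fold change -1.27, SE 0.53, edgeR adjusted p = 0.127). Irf7 had 36.8, 9.83 and 36.2 CPM on day 10 and 66.9 and 68.9 CPM at 48 h (-1.25, SE 0.51, adjusted p = 0.118). Ifi27l2a had 518, 99.1 and 547 CPM on day 10 and 1248 and 1292 CPM at 48 h (-1.66, SE 0.63, adjusted p = 0.0992). In each of these mouse 4 was several times below the other day 10 mice. Ifit1 had 20.2, 3.72 and 14.3 CPM on day 10 and 36.6 and 34.7 CPM at 48 h, Ifit3 27.8, 5.17 and 21.5 CPM on day 10 and 29.8 and 31.6 CPM at 48 h, and Rsad2 30.2, 10.4 and 26.7 CPM on day 10 and 51.5 and 34.5 CPM at 48 h. Stat2, at 33.0, 24.9 and 31.8 CPM on day 10 and 29.4 and 25.4 CPM at 48 h, and Bst2, at 362, 193 and 298 CPM on day 10 and 444 and 335 CPM at 48 h, overlapped. Without mouse 4 the count called lower was 17, while 17.1% of all genes were called lower. Without mouse 5 it was 3, while 5.19% of all genes were called lower. The fits without mouse 1 or without mouse 2 leave 1 mouse at 48 h. Over the mice left out, the log2 fold change ran from -1.71 to -0.87 for Isg15 and from -1.52 to -0.86 for Irf7.

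Monocyte markers moved with time inside cluster 0. Cells with a UMI of Ly6c2, Plac8 or Chil3 made up 13.4%, 28.9% and 16.9% of it on day 10 and 56.8% and 68.7% at 48 h. Without these cells the summed member level was 2989, 1387 and 2697 CPM on day 10 and 3403 and 3625 CPM at 48 h, so the gap between the times was smaller. In that setting 3 of 35 members were called lower (Bst2, Ifi35 and Slfn4) and Stat2 was called higher. Of the 13435 genes tested, 12.1% were called lower and 1688 genes higher, so the members' calls were not above that background. Ifitm3 turned to a log2 fold change of 0.39. The member values of cluster 0 thus depended on which of its cells were counted.

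**Figure D3:**
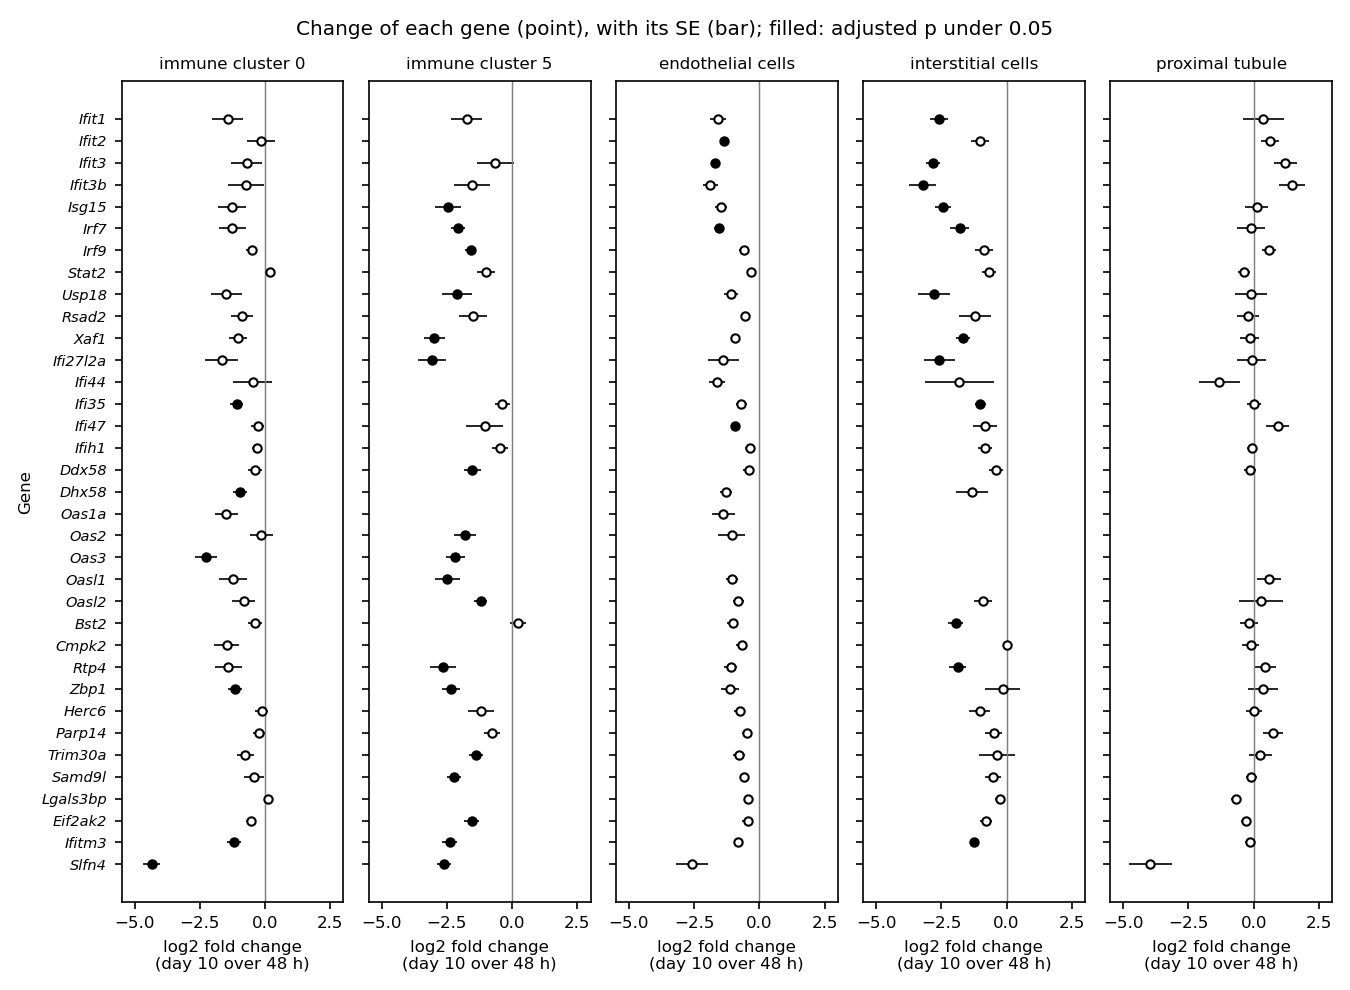
Log2 fold change of each gene (point, day 10 over 48 h) with its standard error (bar) in 5 types, filled where the edgeR adjusted p was under 0.05. Filled points number 6 in immune cluster 0, 18 in immune cluster 5, 4 in endothelial cells, 12 in interstitial cells and 0 in proximal tubule, and every one lies left of 0.

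The change with time was more negative in cluster 5 than in cluster 0 for a large share of the members. The difference was tested within mice, as the interaction of cluster with time. It was called for 19 of the 35 members, negative for 18 and positive for Slfn4, while 8.78% of 12642 genes were called negative and 16.4% called in either direction. The member median difference was -1.22 on the log2 scale, against -0.08 for all genes. Samd9l had 86.6, 49.6 and 50.9 CPM on day 10 and 260 and 172 CPM at 48 h in cluster 5. In cluster 0 it had 45.9, 18.6 and 48.2 CPM on day 10 and 52.6 and 51.7 CPM at 48 h. The difference of its changes was -1.995 (SE 0.27, edgeR adjusted p = 7.14e-06). Ifitm3 followed with -1.39 (SE 0.21, adjusted p = 2.96e-05), Ifi27l2a with -1.76 (SE 0.29, adjusted p = 8.12e-05), Isg15 with -1.57 (SE 0.31, adjusted p = 0.000524) and Xaf1 with -2.25 (SE 0.45, adjusted p = 0.000634). Ifit2 gave -3.33 (SE 0.74, adjusted p = 0.00201), but from only 3 UMIs in cluster 5 on day 10, and it did not pass the filter in cluster 5 alone. Slfn4 went the other way, with 1.47 (SE 0.32, adjusted p = 0.00155), since its change in cluster 0 was the larger. Without mouse 2, which leaves 1 mouse at 48 h, the member median difference was -1.10, against 0.05 for all genes.

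In endothelial cells nearly all members pointed the same way but few passed. Of 34 tested, 4 were lower on day 10 and 0 higher, while 0.205% of 12190 genes were called lower and 0.328% called in either direction. All 34 log2 fold changes were negative, with a median of -0.98 against 0.00 for all genes. For 30 of the 34 every day 10 mouse lay below both 48 h mice, against 10.9% of all genes. Oas3 did not pass the filter. The 4 calls were Ifit3, Ifit2, Irf7 and Ifi47, and 0 of them were called in every fit that left out 1 mouse. Without mouse 5, 0 members were called, but so were 0% of all genes. Without mouse 4, 7 members were called lower, against 0.335% of all genes. The fits without mouse 1 or without mouse 2 leave 1 mouse at 48 h. Over the mice left out, the log2 fold change of Ifit3 ran from -1.84 to -1.53. DESeq2 called 15 members lower, against 1.03% of all genes.

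Ifit3 in endothelial cells had 71.2, 48.3 and 59.3 CPM on day 10 and 200 and 162 CPM at 48 h (log2 fold change -1.69, SE 0.16, edgeR adjusted p = 0.0297). Ifit2, an RNA binder that can promote cell death, had 32.9, 24.0 and 29.9 CPM on day 10 and 75.3 and 65.2 CPM at 48 h (-1.37, SE 0.15, adjusted p = 0.0297). Irf7 had 69.1, 38.9 and 63.3 CPM on day 10 and 150 and 162 CPM at 48 h (-1.54, SE 0.20, adjusted p = 0.0373). The groups lay well apart for all 3. Ifi47 had 39.6, 33.4 and 41.3 CPM on day 10 and 72.4 and 62.8 CPM at 48 h (-0.92, SE 0.13, adjusted p = 0.0474). Isg15 had 152, 87.2 and 124 CPM on day 10 and 376 and 253 CPM at 48 h, without overlap, and missed the threshold (-1.47, SE 0.23, adjusted p = 0.0599). Ifitm3 had 2413, 1770 and 2254 CPM on day 10 and 3920 and 3126 CPM at 48 h (-0.80, SE 0.15, adjusted p = 0.0904). Bst2, whose product tethers virus particles to the membrane, had 651, 374 and 552 CPM on day 10 and 1102 and 911 CPM at 48 h (-1.03, SE 0.21, adjusted p = 0.1). Neither of these overlapped.

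Other endothelial members were as follows. Ifit1 had 85.9, 33.6 and 63.3 CPM on day 10 and 194 and 148 CPM at 48 h. Ifi27l2a had 117, 17.2 and 127 CPM on day 10 and 215 and 210 CPM at 48 h, with mouse 4 far below the rest. Slfn4 had 4.08, 0.506 and 1.16 CPM on day 10 and 8.67 and 13.8 CPM at 48 h. It is a myeloid gene, and neutrophil markers in these cells stood at 99.1 to 632 CPM on day 10 and 1558 to 1592 CPM at 48 h. Stat2 overlapped, with 53.0, 37.7 and 41.0 CPM on day 10 and 53.0 and 49.1 CPM at 48 h. Rsad2, with the levels given above, differed by -0.56 (SE 0.16, edgeR adjusted p = 0.205). The endothelial markers themselves stood at 7520 to 7868 CPM on day 10 and 7697 to 8336 CPM at 48 h.

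**Figure D4:**
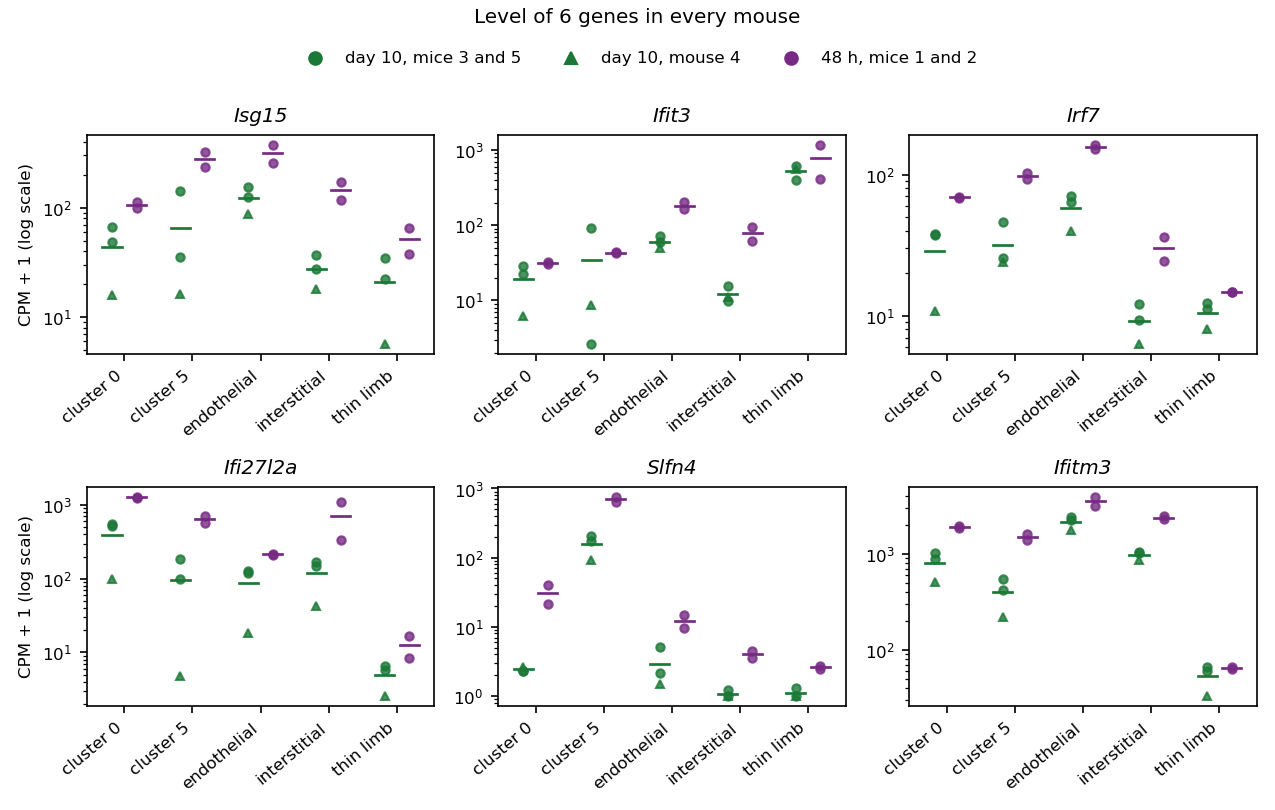
Level of 6 genes (CPM plus 1, log scale) in every mouse in immune clusters 0 and 5, endothelial cells, interstitial cells and the descending thin limb, day 10 left of 48 h, with the mean as a line and mouse 4 as a triangle. Irf7 and Ifitm3 show no overlap in the first 4 types, and Ifit3 is highest in the thin limb.

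Interstitial cells, which carry fibroblast and pericyte markers, had a summed level of 1762, 1314 and 1787 CPM on day 10 and 3857 and 4936 CPM at 48 h. Of 30 members tested, 12 were lower on day 10 and 0 higher, while 3.53% of 11392 genes were called lower and 7.44% called in either direction. The member median was -1.03, against 0.01 for all genes, and 22 of the 30 had every day 10 mouse below both 48 h mice, against 22% of all genes. Ifit3b had 1.16, 4.08 and 2.88 CPM on day 10 and 28.4 and 21.0 CPM at 48 h (log2 fold change -3.21, SE 0.53, edgeR adjusted p = 0.00974). Ifit3 had 8.81, 10.1 and 14.4 CPM on day 10 and 93.1 and 61.2 CPM at 48 h (-2.82, SE 0.28, adjusted p = 0.00163). The IFIT pair thus lay several times lower in every day 10 mouse. Usp18, the restraint on the receptor, had 3.01, 0.942 and 6.25 CPM on day 10 and 22.0 and 22.7 CPM at 48 h (-2.78, SE 0.61, adjusted p = 0.0298). The other members called were Ifit1, Isg15, Bst2, Rtp4, Irf7, Xaf1, Ifitm3, Ifi35 and Ifi27l2a. Without mouse 3, 12 members were called lower, against 3.47% of all genes. It was 10 without mouse 4 (2.70% of all genes) and 11 without mouse 5 (2.75%). The fits without mouse 1 or without mouse 2 leave 1 mouse at 48 h. Over all the mice left out, the log2 fold change of Ifit3 ran from -3.04 to -2.50. The 48 h mice held 115 and 71 such cells, and the neutrophil markers there overlapped between the times, at 173 to 385 CPM on day 10 and 131 to 337 CPM at 48 h.

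The tubule showed fewer changes. In the descending thin limb 2 of 26 members were lower on day 10 and 0 higher, while 2.35% of 11192 genes were called lower and 5.12% called in either direction. Every day 10 mouse lay below both 48 h mice for 14 of the 26, against 15.7% of all genes. Cmpk2, a mitochondrial nucleotide kinase that lies beside Rsad2 in the genome, had 6.10, 6.26 and 4.52 CPM on day 10 and 25.3 and 29.7 CPM at 48 h (log2 fold change -2.32, SE 0.27, edgeR adjusted p = 0.00235). Ifit2 had 35.5, 46.2 and 36.8 CPM on day 10 and 131 and 87.7 CPM at 48 h (-1.54, SE 0.22, adjusted p = 0.00556). Both kept the groups apart and were called without mouse 3, without mouse 4 and without mouse 5. Over all the mice left out, the log2 fold change ran from -2.40 to -2.18 for Cmpk2 and from -1.83 to -1.16 for Ifit2. Ifit3, the segment's high member, overlapped between the times, with mouse 2 among the day 10 mice (-0.68, SE 0.37, adjusted p = 0.365). The segment's own markers stood at 3052 to 4311 CPM on day 10 and 6900 to 11125 CPM at 48 h.

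In proximal tubule 0 of 31 members were called by edgeR. At an unadjusted p under 0.05 stood 4 members, against 3149 of the 13899 genes tested. DESeq2 called Slfn4 and Lgals3bp lower, and 5.12% of all genes. The edgeR log2 fold change of Slfn4 ran from -4.76 to -2.40 over the mice left out, and that of Parp14 was 0.75 with all mice. Of all 13899 genes tested there 3.22% were called, 1.94% as lower. Every day 10 mouse lay below both 48 h mice for 2 of the 31 members, against 8.12% of all genes. For 8 of the 31 every day 10 mouse lay above both 48 h mice, and the share of all genes in this direction was not counted. The log2 fold change was negative for 16 of the 31, against 47.7% of all genes. Ifit3 had 14.9, 6.54 and 6.85 CPM on day 10 and 4.03 and 2.82 CPM at 48 h, every day 10 mouse above both 48 h mice (log2 fold change 1.21, SE 0.44, edgeR adjusted p = 0.173). Slfn4 had 0.141, 0.152 and 0.146 CPM on day 10 and 0.655 and 3.51 CPM at 48 h, from 7 UMIs on day 10 and 54 UMIs at 48 h (-3.96, SE 0.84, adjusted p = 0.0572). Mouse 2 held most of the Slfn4 UMIs, and the neutrophil markers in these cells stood at 62.1 to 86.6 CPM on day 10 and 85.0 and 536 CPM at 48 h. Macrophage markers there stood at 955 to 1517 CPM on day 10 and 127 to 160 CPM at 48 h, and their part in the members that lay higher on day 10, such as Ifit3, was not tested. Isg15, Ifit1, Irf7, Stat2, Ifitm3, Bst2, Ifi27l2a and Rsad2 overlapped between the times. Isg15 had 2.96, 1.22 and 3.06 CPM on day 10 and 2.32 and 1.54 CPM at 48 h. Ifit1 had 3.39, 2.59 and 0.437 CPM on day 10 and 1.71 and 0.941 CPM at 48 h. Neither separated the times. Irf7 had 3.06, 1.52 and 4.71 CPM on day 10 and 4.03 and 1.63 CPM at 48 h. Stat2 had 4.75, 7.76 and 6.70 CPM on day 10 and 6.55 and 7.10 CPM at 48 h. Neither of these factors separated the times. Bst2 had 25.9, 14.8 and 26.5 CPM on day 10 and 28.0 and 14.9 CPM at 48 h. Ifi27l2a had 5.32, 2.28 and 8.65 CPM on day 10 and 3.07 and 7.19 CPM at 48 h. Rsad2 had 1.88, 4.57 and 2.19 CPM on day 10 and 2.72 and 2.57 CPM at 48 h. Ifitm3 had 16.6, 14.5 and 19.0 CPM on day 10 and 13.6 and 17.8 CPM at 48 h.

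By edgeR no member was called in cluster 10 (0 of 18), thick ascending limb (0 of 28), distal tubule and principal cells (0 of 32), TEC-labelled tubule (0 of 16) or intercalated cells (0 of 27). The shares of all genes called in those types were 0.0971% (0.0728% lower) in cluster 10, 10.4% (5.38% lower) in thick ascending limb, 0.00774% (all lower) in distal tubule and principal cells, 0.525% (0.243% lower) in TEC-labelled tubule and 0.238% (0.171% lower) in intercalated cells. Every day 10 mouse lay below both 48 h mice for 5 members in cluster 10 (11.1% of all genes), 1 in thick ascending limb (6.13%), 1 in distal tubule and principal cells (4.5%), 1 in TEC-labelled tubule (7.31%) and 0 in intercalated cells (8.27%). Every day 10 mouse lay above both 48 h mice for 4 members in thick ascending limb and 4 in intercalated cells. It was 2 in distal tubule and principal cells, 1 in TEC-labelled tubule and 0 in cluster 10. The share of all genes in this direction was not counted. At an unadjusted p under 0.05 stood 3 members in cluster 10, against 321 of the 4119 genes tested. In thick ascending limb it was 3 members, against 3699 of 12797 genes. In distal tubule and principal cells it was 0, against 1023 of 12915 genes. In TEC-labelled tubule it was 2, against 756 of 7809 genes, and in intercalated cells 4, against 1127 of 10510 genes. DESeq2 called 1 member, in TEC-labelled tubule, where it called 0.295% of all genes lower. The edgeR count in TEC-labelled tubule and in thick ascending limb depended on the mouse left out. The fits without mouse 1 or without mouse 2 leave 1 mouse at 48 h. The summed level of cluster 10 was 1551, 881 and 1472 CPM on day 10 and 2074 and 1518 CPM at 48 h, so the groups overlapped. A p above the threshold does not show that the levels were alike.

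The time effect in endothelial cells was set against that in proximal tubule in 1 fit with mouse as a block. It was more negative in endothelial cells for 6 of 35 members and more positive for 0, while 1.03% of 13628 genes were called negative and 1.54% called in either direction. The median difference was -1.07 for the members and -0.05 for all genes. Ifit3b differed by -3.33 (SE 0.38, edgeR adjusted p = 0.00753), Ifit3 by -2.86 (SE 0.29, adjusted p = 0.00412) and Ifit2 by -2.06 (SE 0.28, adjusted p = 0.014). Ifi47 (-1.86), Isg15 (-1.60) and Irf9 (-1.23), the DNA-binding subunit of the factor complex, were the other 3. In proximal tubule Irf9 had 12.3, 10.7 and 12.0 CPM on day 10 and 8.06 and 4.79 CPM at 48 h, while its endothelial values lay lower on day 10 in every mouse. Without mouse 3 the count called was 2, while 0.468% of all genes were called negative. Without mouse 5 it was also 2, while 0.231% of all genes were called negative.

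**Figure D5:**
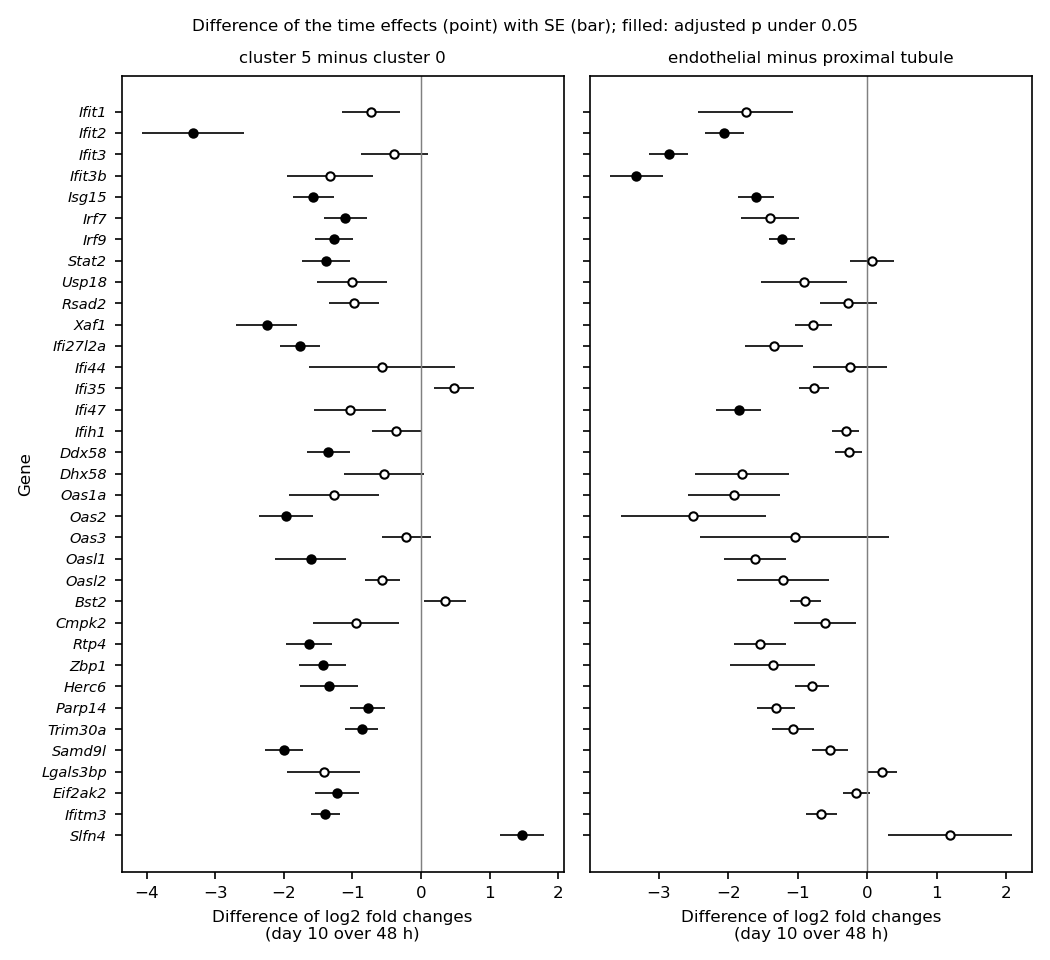
Difference of log2 fold changes (day 10 over 48 h) for each gene, with its standard error, for immune cluster 5 minus cluster 0 (left) and endothelial cells minus proximal tubule (right), filled where the edgeR adjusted p was under 0.05. On the left 18 filled points lie below 0 and Slfn4 lies above it, and on the right all 6 filled points lie below 0.

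Among the day 10 mice, mouse 4 had the lowest level of most members in each of the 11 types. It was the lowest of the 3 for 34 of 35 members in cluster 0, where this held for 41.2% of all genes tested. The counts were 22 of 29 members in cluster 5 (36.8% of all genes), 32 of 34 in endothelial cells (42.2%) and 22 of 30 in interstitial cells (39.2%). In types with a low summed level they were 23 of 28 in thick ascending limb (39.8%), 21 of 31 in proximal tubule (33.8%), 13 of 16 in TEC-labelled tubule (32.0%) and 20 of 27 in intercalated cells (37.3%). It also held the fewest barcodes, 5434, of the 5 libraries. With 3 mice on day 10 its position is given as a value and was not tested.

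Transcripts of the interferons themselves were rare. Ifna1, Ifna2, Ifna4 and Ifna5 had 0 UMIs in 23797 cells. Ifnb1 had 7 UMIs, all in 1 immune cell of mouse 4. Ifnk, a further type I interferon, had 5 UMIs in 5 cells. Ifng, the type II interferon, had 42 UMIs in 34 cells, 95.2% of them in T- and NK-like cluster 10, with 16, 6 and 7 UMIs on day 10 and 9 and 4 UMIs at 48 h. The receptor chains Ifnar1 and Ifnar2 were detected in the types that carried the members. In endothelial cells Ifnar1 had 110.8, 111.7 and 104.9 CPM on day 10 and 75.1 and 82.6 CPM at 48 h (log2 fold change 0.39, edgeR adjusted p = 0.198), and Ifnar2 had 255, 216 and 230 CPM on day 10 and 327 and 299 CPM at 48 h (-0.51, adjusted p = 0.121). Of the ligands and receptors tested, 2 of 5 were higher in cluster 0, Il10rb (0.67) and Ifngr1 (0.56), and 0 of 5 were called in cluster 5, endothelial cells or interstitial cells.

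Targets more closely tied to type II interferon did not follow the members in every type. In cluster 0 6 of 15 tested were higher on day 10 and 0 lower, with a median of 0.34, while 11.5% of all genes tested there were called higher. Ciita, the master regulator of MHC class II genes, had 109, 22.4 and 119 CPM on day 10 and 17.5 and 7.55 CPM at 48 h (log2 fold change 2.81, SE 0.79, edgeR adjusted p = 0.0462). The T cell attractant Cxcl9 had 46.2, 20.6 and 59.0 CPM on day 10 and 7.42 and 5.94 CPM at 48 h (2.70, SE 0.48, adjusted p = 0.013), and the guanylate-binding protein gene Gbp7 had 85.3, 97.0 and 84.2 CPM on day 10 and 34.3 and 32.0 CPM at 48 h (1.48, SE 0.12, adjusted p = 0.00282). These rose while members such as Oas3 and Ifitm3 fell in the same sums, although mouse 4 was again the lowest of its group for Ciita and Cxcl9. In interstitial cells 4 of 11 were lower and 0 higher, among them Cxcl10, with 2.55, 0.314 and 4.33 CPM on day 10 and 47.8 and 29.7 CPM at 48 h (-4.08, SE 0.59, adjusted p = 0.00568). In cluster 5 2 of 8 were lower (Gbp2 and Tap1) and in endothelial cells 1 of 16 (Gbp2). The share of all genes called lower was 3.53% in interstitial cells, 10.7% in cluster 5 and 0.205% in endothelial cells.

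A further list of 35 interferon-induced genes outside the members gave 11 of 20 lower in cluster 5, 9 of 35 lower and 1 higher in cluster 0, 4 of 24 lower in interstitial cells and 0 of 32 called in endothelial cells. Of all genes tested, 10.7% were lower and 7.79% higher in cluster 5, 12.5% lower and 11.5% higher in cluster 0, and 3.53% lower and 3.91% higher in interstitial cells, and 0.328% were called in endothelial cells. The counts of the 3 lists that follow stand against the same shares. Its median log2 fold change was -1.06 in cluster 5, -0.56 in cluster 0, -0.74 in interstitial cells and -0.60 in endothelial cells. In cluster 5 Ube2l6, the conjugating enzyme for Isg15, had 4.81, 3.81 and 6.57 CPM on day 10 and 17.7 and 19.5 CPM at 48 h (log2 fold change -2.29, SE 0.45, edgeR adjusted p = 0.00666). Of the signalling list, Irf8, a factor of myeloid cells, was higher in cluster 5 (log2 fold change 2.41) and in interstitial cells (1.32). In cluster 0, 1 of 11 was lower (Irf5) and 1 higher (Irf8), and 0 of 10 were called in endothelial cells. Nucleic acid sensors and adaptors outside the members gave 3 lower (Cgas, Myd88 and Samhd1) and 2 higher (Tlr8 and Tlr3) of 13 in cluster 0, 1 of 5 lower in cluster 5 and 0 of 10 called in endothelial cells and in interstitial cells. Of a list set down as restraints of the pathway, 1 of 5 was lower in cluster 5. This was Isg20, itself an interferon-stimulated gene and not a restraint, and no other gene of the list was called there. In cluster 0, 1 was lower and 1 higher of 7, and 0 were called of 7 in endothelial cells and of 6 in interstitial cells. These lists share interferon targets with the members by function, and their counts are given only as a description.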

How the data were processed

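Raw UMI counts per gene and barcode were deposited by the authors for each of 5 libraries, with a table of 23797 cells that gives each cell's UMI count, percent of mitochondrial UMIs, label, cluster and embedding scores, per the file headers. The deposited percents and scores were not used. Cell Ranger 6.0.2, mm10 and Seurat 4.0.5 are named in the submitters' processing notes without roles, and the matrix headers give Cell Ranger 6.0.0. Summed UMIs equalled the table's counts for every kept cell. A result for 1 gene of the signalling list is not reported here. The table shows no step against doublets or free RNA, and none was added.

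The 35 members and the other lists were chosen with earlier results of these data known. The members' roles were grouped after the results were seen. Labels that are states or segments of a type were merged. Each mouse contributed 1 sum of UMIs to every type. The sums were fitted with edgeR 4.0.16 (R 4.3.3), using its filterByExpr rule and TMM scaling, and its quasi-likelihood test was adjusted by Benjamini-Hochberg over all genes of a type. Differences of time effects used a mouse block and an interaction term. Each SE was derived from the fold change and its F statistic. DESeq2 1.42.0 was an alternative, with 16 settings in all. The code was tested on simulated data. Named in 4 types were up to 6 called members with the largest changes and 10 fixed members, and up to 3 called members in the others, with further members added after their values were seen. The labels give no batch or day of processing, so a batch that went with time could not be told apart from it. In the fits of 1 type, each p-value sets the difference between the times against the spread among the mice of a group. In the fits with a mouse block, it sets the difference of the time effects against the spread left within mice.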

Additional observations from a re-analysis of the deposited data

Results flagged for a closer look

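The time effect differed between immune cluster 5 and immune cluster 0 for 19 of the 35 members, by the interaction term of the edgeR fit with mouse as a block. The log2 differences, cluster 5 minus cluster 0, were -3.33 for Ifit2, -2.25 for Xaf1, -1.995 for Samd9l, -1.97 for Oas2, -1.76 for Ifi27l2a, -1.63 for Rtp4, -1.61 for Oasl1, -1.57 for Isg15, -1.43 for Zbp1 and -1.39 for Ifitm3. They were -1.39 for Stat2, -1.35 for Ddx58, -1.34 for Herc6, -1.27 for Irf9, -1.22 for Eif2ak2, -1.10 for Irf7, -0.86 for Trim30a and -0.78 for Parp14. Slfn4 differed by 1.47. The value of Ifit2 rests on few UMIs in cluster 5 on day 10, and in cluster 5 alone this gene did not pass the low-count filter. Ifi44, Dhx58, Oas1a, Cmpk2 and Lgals3bp did not pass it there either, and their differences were not called. Neutrophil markers in cluster 5 and monocyte and macrophage markers in cluster 0 also moved with time, and their part in these differences was not tested. The time effect differed between endothelial cells and proximal tubule for 6 members, by -3.33 for Ifit3b, -2.86 for Ifit3, -2.06 for Ifit2, -1.86 for Ifi47, -1.60 for Isg15 and -1.23 for Irf9. The gap of a single mouse to the others was not tested in groups of 3 and 2.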

How the results depend on the processing

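No paired analysis was possible because the mouse numbers are unique and the groups share none. Over 16 settings and the named members, 478 values stayed on the same side of the threshold in the same direction, 52 were weaker, 39 stronger and 25 turned sign. DESeq2 called 10 members in cluster 0, 15 in endothelial cells, 2 in proximal tubule and 1 in TEC-labelled tubule, all lower on day 10. Of all genes it called 15.1%, 1.03%, 5.12% and 0.295% lower in these types. It also called 15 of 29 members lower in cluster 5, 11 of 30 in interstitial cells and 2 of 26 in the descending thin limb. In these 7.59%, 3.68% and 2.45% of all genes were called lower. With no filter on low counts the numbers were 11 in cluster 0, 27 in endothelial cells, 2 in proximal tubule, 5 in thick ascending limb, 1 in TEC-labelled tubule, 10 in the descending thin limb, all lower on day 10, and 5 in intercalated cells, all higher. The shares of all genes called lower there were, in the same order, 7.59%, 1.32%, 3.01%, 6.77%, 0.826% and 3.02%. In intercalated cells 2.35% of all genes were called in either direction. Without the filter 27 of 35 members were called lower in cluster 5, against 6.21% of all genes. In interstitial cells it was 12 of 34, against 3.57% of all genes. With equal cells, each thinned, fewer counts enter and fewer members pass the filter. Those called lower were 3 of 28 in cluster 0, 5 of 11 in cluster 5 and 9 of 29 in endothelial cells. In interstitial cells 2 of 4 were called lower, and in the descending thin limb 0 of 4. The shares of all genes called lower were, in the same order, 6.89%, 6.22%, 0.556%, 1.19% and 0.732%. Library totals alone gave 2 of 34 members lower in endothelial cells, while 0.0984% of all genes were called lower there. In thick ascending limb 2 of 28 members were then higher (Parp14 and Ifit3b), while 3231 of 12797 genes were called higher.

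Leaving out 1 mouse gave 1 to 17 calls in cluster 0, 13 to 28 in cluster 5, 0 to 7 in endothelial cells, 0 to 2 in proximal tubule, 0 to 1 in thick ascending limb, 6 to 12 in interstitial cells, 0 to 2 in TEC-labelled tubule and 2 to 4 in the descending thin limb. It gave 11 to 24 for cluster 5 minus cluster 0 and 2 to 7 for endothelial cells minus proximal tubule. The ranges include the fits without mouse 1 or without mouse 2, which leave 1 mouse at 48 h. The share of all genes called lower also moved between the fits. Without mouse 4 it was 17.1% in cluster 0 and 0.335% in endothelial cells, and without mouse 5 it was 5.19% and 0%. The ratio of summed levels, day 10 over 48 h, was 0.294 in interstitial cells without Ifitm3, Bst2 and Lgals3bp and 0.432 as a mean over cells. In the thin limb it ran from 0.507 to 0.960 over the mice left out.

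Sign turned for these log2 fold changes. Ifitm3 in cluster 0 was 0.39 without cells with monocyte UMIs. Without cells with Siglecf UMIs, Ifit3 was 0.069 and Bst2 -0.14 in cluster 5, and over the mice left out they ran from -4.10 to 0.0070 and from -0.14 to 0.41. In proximal tubule, where 0 members were called, library totals alone gave 0.16 for Irf7, 0.11 for Ifitm3, 0.073 for Bst2, 0.17 for Ifi27l2a and 0.035 for Rsad2. Without injured and cycling labels Isg15 was -0.66 and Irf7 0.051, and without cells with neutrophil UMIs Ifi27l2a was 0.30. Over the mice left out Isg15 ran from -0.14 to 0.48, Ifit1 from -0.36 to 0.91, Irf7 from -0.59 to 0.75, Ifitm3 from -0.33 to 0.026, Bst2 from -0.58 to 0.37, Ifi27l2a from -0.58 to 0.60 and Rsad2 from -0.63 to 0.0080. The cause of these changes was not tested. Library totals alone moved the median of all genes to 0.57 in cluster 5, 0.29 in proximal tubule and 0.36 in thick ascending limb.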
